A study of Mus musculus with 29 samples.

Results

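The DNA methylation of 8 genes that mark cytotoxic lymphocytes was described in mouse lung, across a maternal exposure and an allergic airway challenge. The genes were Prf1, Gzma, Gzmb, Nkg7, Klrd1, Klrb1c, Ncr1 and Eomes, and their members were the windows that the deposited whole-genome methyl-sequencing (WGMS) table names for them. This gave 18 windows of 260686, for 8 of the 39260 named genes. A window is a stretch of the GRCm38 genome holding 100 CpG cytosines in the median, counted over both strands (100 to 151 in the 18 windows), and its value is a percent DNA methylation (%DNAm). Windows are numbered here from the 5′ side of each gene, so that Gzma 1 is the window with the start of Gzma.

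The tissue was lung from Balb/c offspring, described by the series as 13-week-old females. Sham and Sham-OVA offspring came from dams given saline through the nose before mating, in gestation and until weaning, and PM and PM-OVA offspring from dams given fine particulate matter (PM2.5) suspended in saline over the same period. OVA marks offspring sensitised to ovalbumin with alum and then challenged with ovalbumin aerosol, a model of allergic airways disease, and the remaining offspring inhaled saline. The Sham, Sham-OVA and PM groups had 7 libraries each and PM-OVA had 8, 1 per sample, and the labels do not state which offspring shared a dam or litter, so p-values measure the spread between these libraries. The particulates were an intranasal suspension without the gases of polluted air, and offspring were exposed only through the dam.

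Cytotoxic lymphocytes, namely natural killer cells and CD8 T cells, kill target cells by releasing granules. Perforin opens the target membrane and granzymes, which are serine proteases, enter and trigger apoptosis. Natural killer receptors of the Klr family and Ncr1 read the target surface, and the T-box factor Eomes, with T-bet, drives expression of the lytic genes. DNA methylation at these loci is usually lower in cells that express them than in cells that do not, and CpG-rich gene starts are usually unmethylated in most tissues. In a piece of whole lung, a smaller or larger share of a cell type and a change of methylation within cells cannot be told apart.

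Between 258952 and 260135 windows per library had a value. Neither read counts nor coverage come with the percentages, so the depth behind the value of a window is unknown. A library that stood apart was Sham replicate 1, with a value in 1224 of the 1230 Y chromosome windows where the other 28 libraries had 29 to 46. It is kept under its label, and the Sham differences of most windows described are also given without it. PM-OVA replicates 7 and 8 carry a different kind of library name than the rest, whose meaning the labels do not state.

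The gene starts differ in how many CpG sites there are to methylate, and the 300 bases around the start are shown for 4 members to make this visible. They were copied from RefSeq (GRCm38.p6), on the strand of the gene, from 250 bases before the start to 50 bases after it, and capitals mark each CpG. Gzma lies on the minus strand at chr13:113100932-113101231, inside Gzma 1, the window that fell in both OVA comparisons. Nkg7, on the plus strand at chr7:43436888-43437187, starts outside the window named for it. Ncr1 is shown because the stretch at chr7:4337465-4337764 (plus strand) holds 0 CpG, and Eomes (plus strand, chr9:118477939-118478238) because it holds the most of the members. The last line is the most CpG-rich 300 bases of the intragenic window Eomes 4, which rose after OVA, read from GRCm38 (plus strand, chr9:118480358-118480657).
Gzma: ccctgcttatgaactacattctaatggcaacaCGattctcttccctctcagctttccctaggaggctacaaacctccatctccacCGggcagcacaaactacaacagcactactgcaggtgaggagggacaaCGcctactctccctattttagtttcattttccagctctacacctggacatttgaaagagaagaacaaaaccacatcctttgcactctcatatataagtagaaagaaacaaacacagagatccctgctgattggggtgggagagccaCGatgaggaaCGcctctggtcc
Nkg7: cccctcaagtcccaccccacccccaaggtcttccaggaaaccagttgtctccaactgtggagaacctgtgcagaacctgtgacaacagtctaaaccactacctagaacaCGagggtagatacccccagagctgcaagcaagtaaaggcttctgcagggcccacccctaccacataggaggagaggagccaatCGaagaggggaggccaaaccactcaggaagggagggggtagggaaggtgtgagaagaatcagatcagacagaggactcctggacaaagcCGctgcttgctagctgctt
Ncr1: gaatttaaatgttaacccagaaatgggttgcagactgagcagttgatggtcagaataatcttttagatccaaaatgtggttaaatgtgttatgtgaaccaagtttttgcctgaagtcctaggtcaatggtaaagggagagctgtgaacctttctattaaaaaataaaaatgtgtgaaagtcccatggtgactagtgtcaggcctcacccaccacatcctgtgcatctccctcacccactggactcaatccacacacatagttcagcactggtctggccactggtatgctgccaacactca
Eomes: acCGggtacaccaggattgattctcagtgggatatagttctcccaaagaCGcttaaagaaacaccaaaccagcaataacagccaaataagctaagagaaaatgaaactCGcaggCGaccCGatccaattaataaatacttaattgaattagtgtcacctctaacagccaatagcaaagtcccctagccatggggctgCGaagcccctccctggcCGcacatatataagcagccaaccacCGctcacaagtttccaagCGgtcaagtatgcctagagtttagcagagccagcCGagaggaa
Eomes 4: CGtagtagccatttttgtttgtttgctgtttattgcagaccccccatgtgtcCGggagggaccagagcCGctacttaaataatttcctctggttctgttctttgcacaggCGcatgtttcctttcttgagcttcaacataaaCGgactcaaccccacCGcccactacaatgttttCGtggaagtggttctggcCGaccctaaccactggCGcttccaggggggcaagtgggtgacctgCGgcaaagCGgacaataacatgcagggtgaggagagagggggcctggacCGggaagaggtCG

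RefSeq start sequences were found for 7 of the 8 genes, all but Klrd1. CpG counts per start were 0 for Ncr1, 1 for Klrb1c, 2 for Gzmb, 3 for Nkg7, 5 for Gzma, 5 for Prf1 and 10 for Eomes, beside a median of 7 over 32851 mouse starts of the same length. Thus 6 of the 7 starts were poorer in CpG than the median start, and Eomes was richer. The letters AGGTGT, part of a T-box site, or their reverse complement ACACCT were in 3 of the 7 starts (Prf1, Gzma and Nkg7) and in 13.7% of all starts. The RUNX letters TGTGGT or ACCACA were in 6 of the 7, all but Eomes, and in 16.8% of all starts. These letter matches describe the sequence and were not tested against binding.

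Levels differed most within Eomes, whose start-side windows are dense in CpG. In Sham, Eomes 2 averaged 0.463% ± 0.0874 (SD, n = 7), Eomes 1 averaged 1.28% ± 1.8 and Eomes 3 averaged 2.2% ± 0.589. These are the start-side windows of Eomes, with 24.3, 9.55 and 18.9 CpG cytosines per 100 bases, where the median of all windows was 2.11. The other windows had 1.12 to 4.42 per 100 bases. Eomes 6 followed at 24.4% and Eomes 4 at 31.9%, and then came Klrd1 1 at 56.5% and Klrb1c 1 at 56.6%, whose ranges overlapped. Prf1 1 (66.5%), Nkg7 1 (69.8%), Ncr1 1 (72.1%), Ncr1 2 (72.2%) and Gzmb 1 (73.4%) came next, each overlapping with its neighbours in this order. The remaining windows lay from Gzma 1 at 76.0% up to Eomes 5 at 83.3%. The mean over all tested windows was 69.1% ± 0.367 in Sham.

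**Figure D1:**
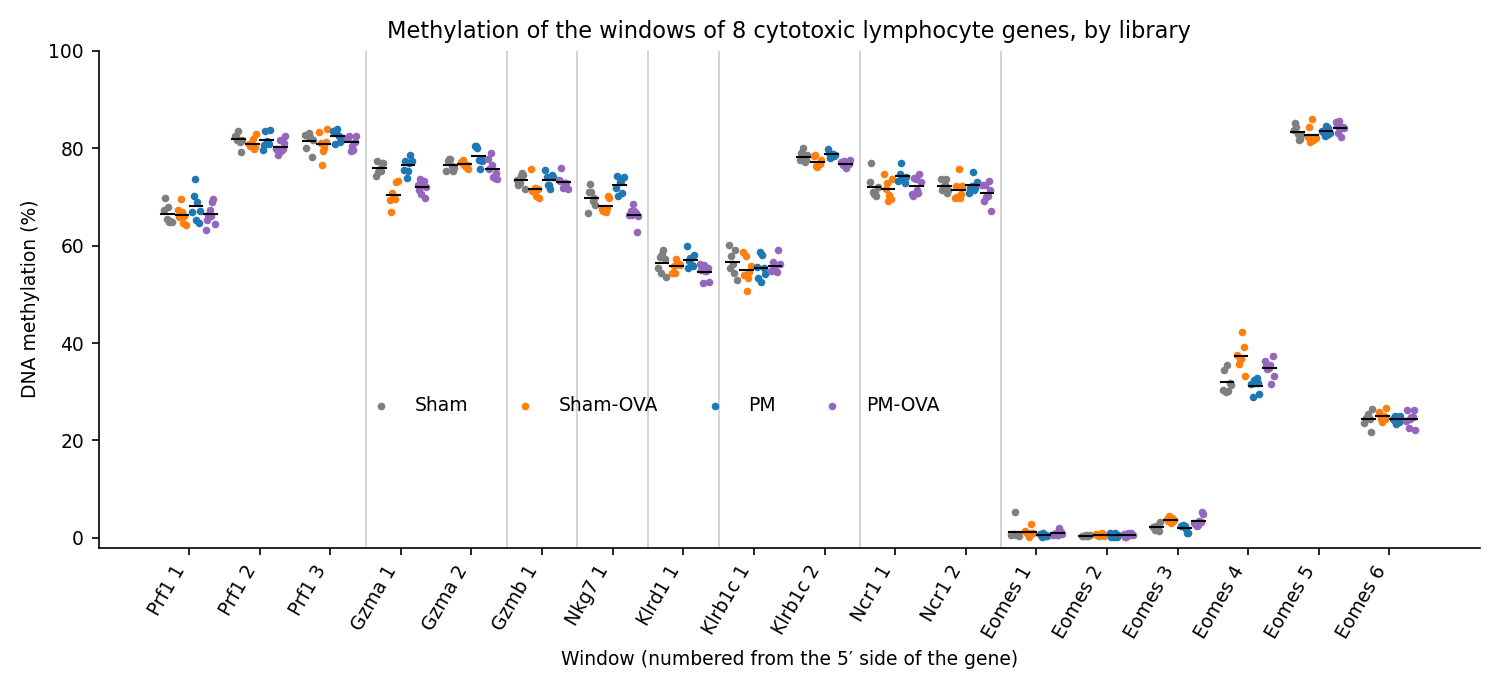
Percent DNA methylation of each of the 18 windows (x axis, numbered from the 5′ side of the gene) in each library, with 1 point per library coloured by group and a black line at the group mean. Eomes 1 to 3 lie near the bottom, Eomes 4 and 6 between 20% and 45%, and the windows of the lytic and receptor genes above 50%.

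None of the 18 windows moved by 10 points after OVA challenge. A differentially methylated region (DMR) was a window with an adjusted p under 0.05 in limma's moderated test (Benjamini-Hochberg over all tested windows) whose group means were 10 percentage points or more apart. In Sham offspring 0 of 18 member windows were DMRs, beside 0.775% of all tested windows. In PM offspring 0 of 18 were DMRs, beside 0.584% of all. Without the minimum difference, 1 window fell and 2 rose after OVA in Sham (limma, adjusted p under 0.05), where 22.3% of all windows fell and 13.3% rose. In PM 5 fell and 2 rose, where 34.8% of all windows fell and 9.26% rose. Without adjustment, limma gave p under 0.05 for 5 windows in Sham and for 7 in PM, beside 45% and 51.4% of all tested windows.

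The falls have to be read against a shift of the whole table. Over all tested windows the median OVA difference was -0.41 points for Sham offspring and -1.03 for PM offspring. Over the 18 member windows it was -0.585 and -1.24 points. Centring each library on its own median raised the difference of each of the 18 windows by 0.394 points in Sham and by 0.979 points for PM offspring. With the libraries so centred, limma called 2 members higher and 1 lower in Sham, beside 18.3% of all windows higher and 17.8% lower. In PM the centred split was 3 higher and 2 lower, beside 18.9% and 18.7% of all windows. Without Sham replicate 1, limma called the same 3 member windows in Sham (Gzma 1, Eomes 3 and Eomes 4), with 0 DMRs. The differences of the other member windows then ran from -2.2 points (Nkg7 1) to 0.493 points (Eomes 6).

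**Figure D2:**
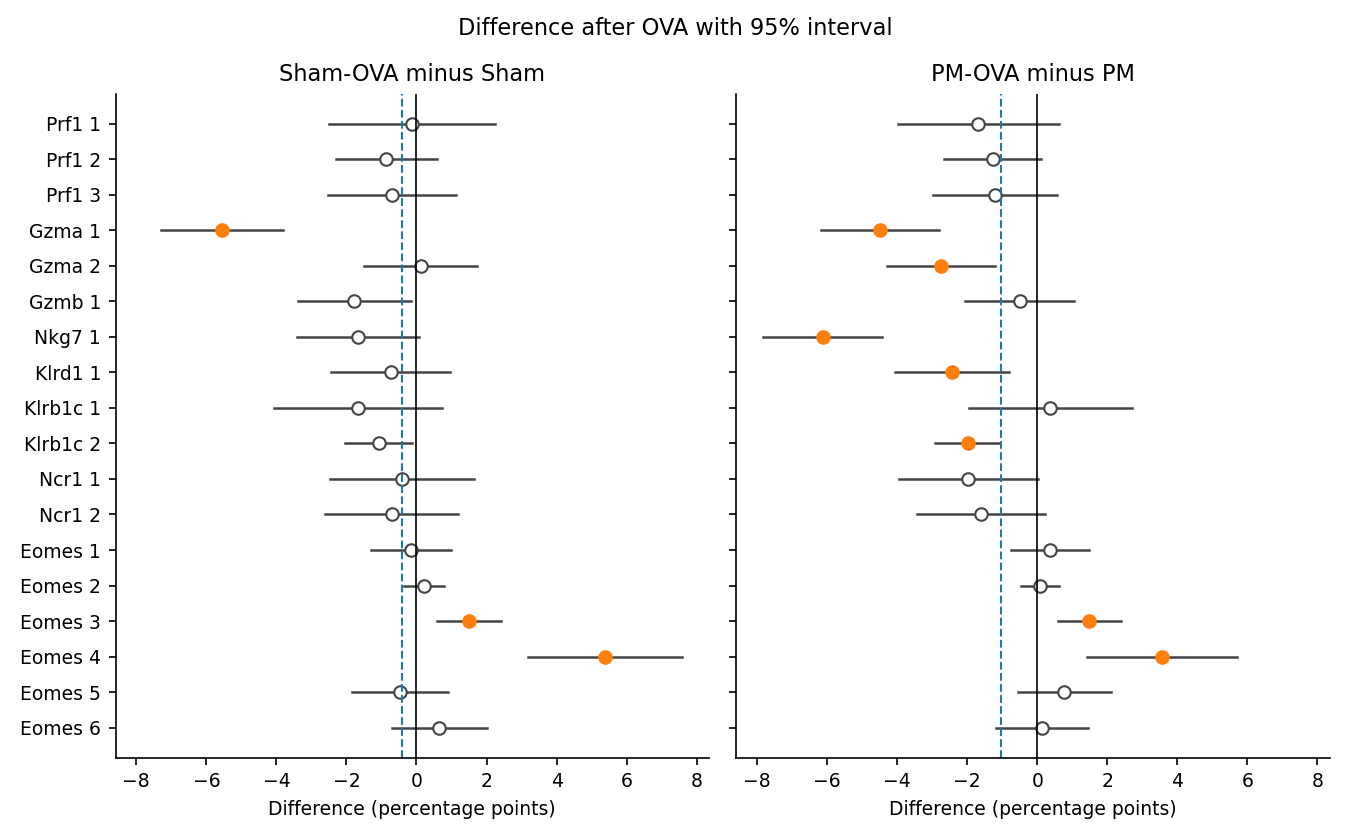
Difference in percentage points after OVA for each of the 18 windows, Sham-OVA minus Sham (left) and PM-OVA minus PM (right), with the 95% interval of the limma fit on percentages. Filled points have an adjusted p under 0.05, the dashed line is the median over all tested windows, and Gzma 1 lies furthest to the left in Sham and Nkg7 1 in PM, while Eomes 4 lies furthest to the right in both.

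Gzma encodes granzyme A, a tryptase-like protease of cytotoxic granules. Gzma 1 (chr13:113099297-113104932, 5636 bases) holds 1685 bases of the gene with 226 exonic bases, and the 2000 bases before its start. In Sham the lowest, median and highest library stood at 74.3%, 75.7% and 77.3%, and in Sham-OVA at 66.8%, 70.0% and 73.2%. In PM they stood at 73.8%, 77.0% and 78.7%, and in PM-OVA at 69.7%, 72.3% and 73.7%. Every challenged library lay below every unchallenged library of the same maternal group. The share of all tested windows whose groups separate in this way was not counted. Separation, here or in the windows below, therefore cannot be called particular to these genes.

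Gzma 1 thus fell from 76.0% ± 1.13 to 70.4% ± 2.23 (SD, n = 7 each) in Sham, by 5.56 points (95% interval -7.3 to -3.82). On the scale of log2 methylated to unmethylated signal the change was -0.40 ± 0.063 (SE, limma adjusted p = 2e-05). In PM it fell from 76.5% ± 1.64 to 72.0% ± 1.36, by 4.48 points (-6.17 to -2.8, limma adjusted p = 9.1e-05). The OVA differences in PM and in Sham lay 1.08 points apart (-1.34 to 3.5, limma adjusted p = 0.881). Without Sham replicate 1 the Sham difference was -5.84 points (limma adjusted p = 2.13e-05).

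The gene body window Gzma 2 (chr13:113091615-113099296) holds 5472 bases of the gene. The lowest, median and highest library were 75.4%, 76.4% and 77.8% in Sham and 75.7%, 76.5% and 77.6% in Sham-OVA. These ranges overlapped almost wholly, and the difference was 0.115 points (-1.49 to 1.72, limma adjusted p = 0.933), and -0.0897 points without Sham replicate 1. In PM the libraries ran from 75.7% over 77.8% to 80.5%, and in PM-OVA from 73.7% over 75.4% to 79.0%, so that these groups overlapped. Gzma 2 fell by 2.75 points in PM (-4.3 to -1.2, limma adjusted p = 0.00547). With the libraries centred this was -1.77 points (limma adjusted p = 0.0787). The OVA differences of Gzma 2 in PM and in Sham differed by -2.87 points (-5.1 to -0.638), at 0.0165 unadjusted and 0.618 adjusted in limma.

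Gzmb encodes granzyme B, which cleaves caspases in the target. Gzmb 1 (chr14:56259135-56266068) holds the start and 3126 of the 3423 bases of the gene. Sham libraries ran from 71.6% over a median of 73.4% to 75.0%, and Sham-OVA libraries from 69.7% over 71.4% to 75.8%. The difference was -1.77 points (-3.38 to -0.159, limma adjusted p = 0.105), and 6 of 7 Sham-OVA libraries lay below the Sham mean. The library that did not, Sham-OVA replicate 1 at 75.8%, was the highest of both groups, and without it the difference was -2.45 points (limma adjusted p = 0.0132). Leaving out Sham replicate 1 gave -1.78 points (limma adjusted p = 0.131). In PM and PM-OVA the medians were 74.0% and 72.9%, with a difference of -0.504 points (-2.06 to 1.06, limma adjusted p = 0.638). That difference was -0.93 points without PM-OVA replicate 3, -0.166 points without PM replicate 1 and 0.476 points with the libraries centred. The last 297 bases of Gzmb lie in the next window, which is named for Gm4819 and is mostly outside Gzmb. That window fell by 2.4 points after OVA in Sham offspring (limma adjusted p = 0.00991) and in PM offspring it fell by 2.87 points (limma adjusted p = 0.00116). The Sham difference of the Gm4819 window without Sham replicate 1 was -2.19 points (limma adjusted p = 0.0251).

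Prf1 encodes perforin, the pore-forming protein of the granules, and was spanned by 3 windows from chr10:61294084 to chr10:61306082. Prf1 1, with the gene start and the 2000 bases before it, had medians of 65.5% in Sham, 66.0% in Sham-OVA, 67.0% in PM and 66.2% in PM-OVA. The widest group was PM, from 64.7% to 73.6%. OVA differences of Prf1 1 were -0.123 points in Sham (-2.5 to 2.25, limma adjusted p = 0.948) and -1.69 points in PM (-3.99 to 0.609, limma adjusted p = 0.235). The PM difference was -0.773 points without PM replicate 3, the highest library at 73.6%, and -0.71 points with the libraries centred. Without Sham replicate 1 the Sham difference was 0.0104 points.

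Prf1 2 and Prf1 3, which hold the coding exons, were methylated at 80.3% to 82.4% in all 4 group means. Their OVA differences ran from -1.27 to -0.697 points, and the smallest adjusted p of the 3 Prf1 windows was 0.136 in limma (Prf1 2 in PM). All 3 windows had a negative difference in both comparisons when fitted to all libraries. That of Prf1 1 in Sham was positive with the libraries centred (0.272 points) and without Sham replicate 1, 2 or 4 or Sham-OVA replicate 5 or 7 (0.0104 to 0.412 points). All groups overlapped, and no Prf1 window passed the test. With the replicate number as a block, Prf1 2 in PM had an adjusted p of 0.037 in limma, and with the libraries centred its difference was -0.295 points (limma adjusted p = 0.815). Without Sham replicate 1 the Sham differences were -0.735 points for Prf1 2 and -0.498 points for Prf1 3.

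Nkg7 encodes a membrane protein of cytotoxic granules needed for their release. The gene is 1177 bases long, and the window that carries its name, Nkg7 1 (chr7:43438074-43442634), shares only 176 bases at its 3′ end and otherwise covers Cldnd2 and the sequence around it. Sham libraries ran from 66.6% over 69.8% to 72.6% and Sham-OVA libraries from 66.9% over 67.6% to 70.2%, so that the groups overlapped. PM libraries ran from 70.2% over 73.1% to 74.3% and PM-OVA libraries from 62.8% over 66.5% to 68.6%, with no overlap. PM was the highest of the 4 groups and PM-OVA the lowest.

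Nkg7 1 fell from 72.5% ± 1.6 to 66.4% ± 1.63 in PM (SD, n = 7 and 8), by 6.13 points (-7.82 to -4.44), which was -0.41 ± 0.057 on the log2 scale (SE, limma adjusted p = 2.72e-06). The values in Sham were 69.8% ± 1.96 and 68.1% ± 1.29, a difference of -1.67 points (-3.42 to 0.0707, limma adjusted p = 0.146), or -2.2 points without Sham replicate 1 (limma adjusted p = 0.0551). The PM difference minus the Sham difference was -4.45 points (-6.88 to -2.03), the smallest p of the members for this term, at 0.00121 unadjusted and 0.551 adjusted in limma. With the lowest Sham library, replicate 1 at 66.6%, left out, this term was -3.93 points, at 0.00273 unadjusted and 0.573 adjusted in limma. Among all windows 7.4% had an unadjusted p under 0.05 for the term, and the adjusted value did not pass. The PM-OVA library that lay lowest, replicate 7 at 62.8%, is among the libraries with the different kind of name. Leaving out any single library of the PM comparison gave -6.51 to -5.62 points.

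The start of Nkg7 and 1000 of its bases lie in the neighbouring window (chr7:43433695-43438072), which the table names for the lens gene Lim2. This window had medians of 72.0% in Sham, 69.4% in Sham-OVA, 72.5% in PM and 69.2% in PM-OVA. It fell by 4 points in PM (-5.77 to -2.23, limma adjusted p = 0.000716), with PM (70.3% to 74.4%) and PM-OVA (66.5% to 69.9%) not overlapping. In Sham the difference was -2.23 points (-4.06 to -0.399, limma adjusted p = 0.0632), and without Sham replicate 1 it passed the test at -2.71 points (limma adjusted p = 0.0258). The Nkg7 start shown above thus sits in a window whose PM difference passed the test.

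**Figure D3:**
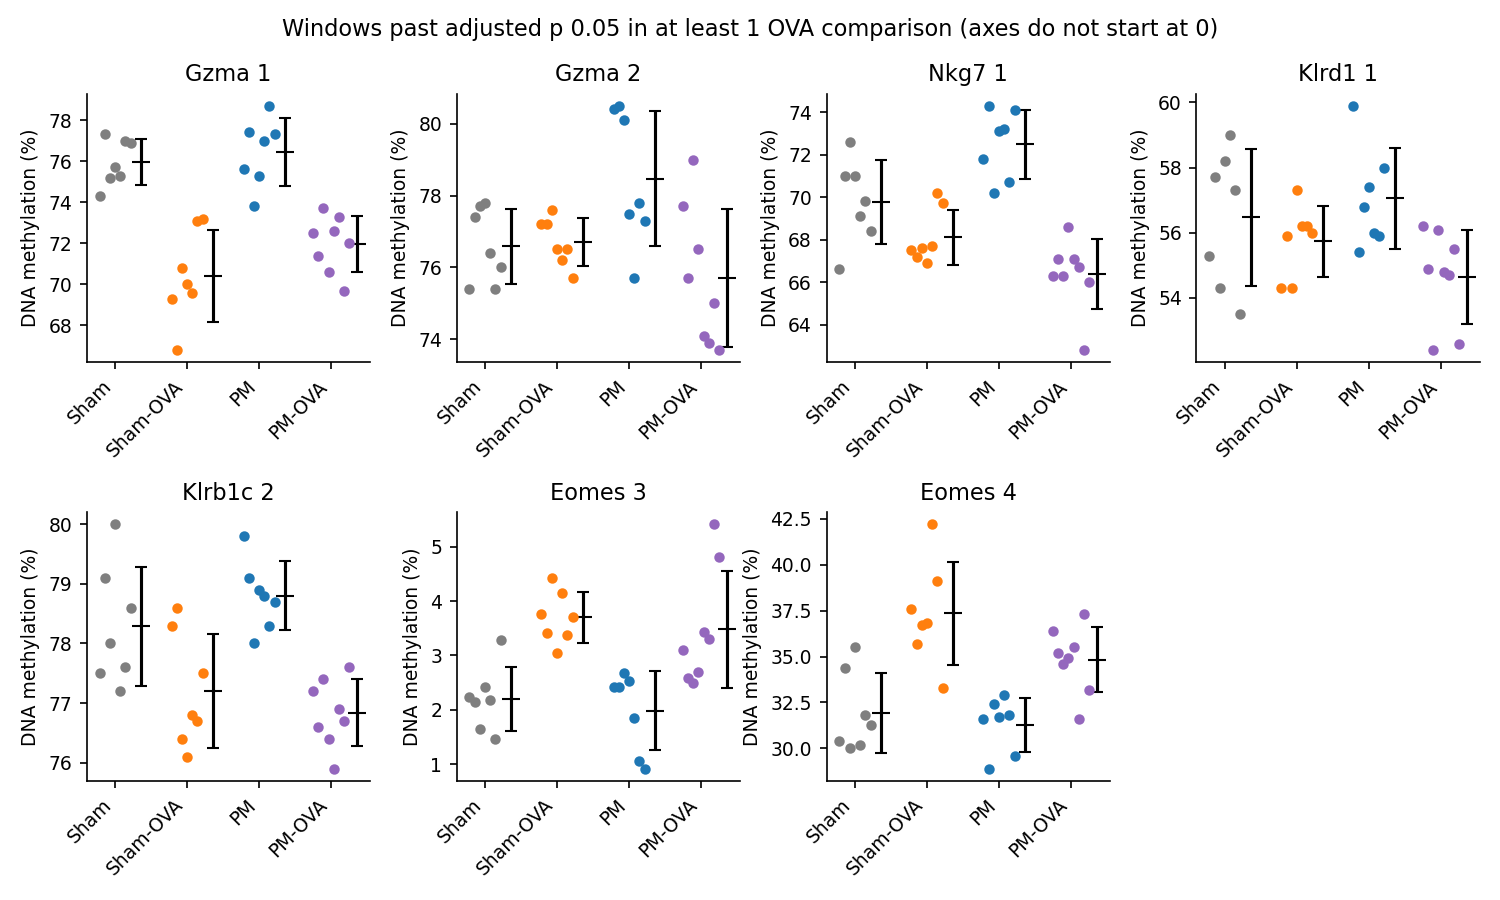
Percent DNA methylation by library and group for the 7 windows past an adjusted p of 0.05 in at least 1 OVA comparison, with mean ± SD beside the points and axes that do not start at 0. Gzma 1 separates challenged from unchallenged libraries in both maternal groups, Nkg7 1 and Klrb1c 2 only within PM offspring, and Eomes 3 and 4 lie higher after OVA in both. The share of all tested windows that separate in this way was not counted.

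Klrd1 encodes CD94, the partner of NKG2 chains in receptors that bind a non-classical MHC molecule. Klrd1 1 (chr6:129591506-129600290) covers the whole gene of 6994 bases. The lowest, median and highest library were 53.5%, 57.3% and 59.0% in Sham, 54.3%, 56.0% and 57.3% in Sham-OVA, 55.4%, 56.8% and 59.9% in PM, and 52.4%, 54.9% and 56.2% in PM-OVA. All groups overlapped. Klrd1 1 fell by 2.43 points in PM (-4.06 to -0.796, limma adjusted p = 0.0248), and had a difference of -0.742 points in Sham (-2.43 to 0.944, limma adjusted p = 0.544), or -0.933 points without Sham replicate 1. Over all libraries left out in turn the Sham difference ran from -1.23 to -0.324 points (without Sham replicates 7 and 5). The PM call did not hold in limma without PM replicate 1 (-1.95 points, adjusted p = 0.0734), PM-OVA replicate 3 (adjusted p = 0.0533) or PM-OVA replicate 8 (adjusted p = 0.0552). It was also lost in limma without both PM-OVA replicates 7 and 8 (adjusted p = 0.0608), with the replicate number as a block (adjusted p = 0.0544) and with the libraries centred (-1.45 points, adjusted p = 0.482).

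Klrb1c encodes the receptor known as NK1.1 in C57BL/6 mice, an antigen that is not detected on BALB/c cells. The reads were mapped to the C57BL/6J reference, and the part of strain differences in these values was not tested. Klrb1c 1 (chr6:128778845-128791201), with the gene start and 10371 of its 10731 bases, had medians of 56.3% in Sham, 54.5% in Sham-OVA, 55.3% in PM and 55.2% in PM-OVA. Its OVA differences were -1.66 points in Sham (-4.06 to 0.734, limma adjusted p = 0.298), -1.08 points there without Sham replicate 1, and 0.376 points in PM (-1.94 to 2.7, limma adjusted p = 0.823). Leaving out single libraries gave -2.27 to -0.937 points in Sham and -0.0917 to 0.902 points in PM, with a change of sign in PM.

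Klrb1c 2 (chr6:128772436-128778780) holds the last 296 bases of the gene, all untranslated, and the sequence after it. PM libraries ran from 78.0% over 78.8% to 79.8% and PM-OVA libraries from 75.9% over 76.8% to 77.6%, with no overlap. It fell by 1.99 points in PM (-2.91 to -1.07, limma adjusted p = 0.00182), and by 1.01 points, no longer called, with the libraries centred (limma adjusted p = 0.156). In Sham the difference was -1.08 points (-2.03 to -0.131, limma adjusted p = 0.0985), and -1.32 points without Sham-OVA replicate 2 (limma adjusted p = 0.0497). Leaving out Sham replicate 1 gave -1.2 points (limma adjusted p = 0.0833). The SDs of this window were small, from 0.563 to 1.0 points.

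Ncr1 encodes NKp46, an activating receptor found mainly on natural killer and other innate lymphoid cells. Ncr1 1 (chr7:4334555-4343479) holds the start that lacks any CpG, and Ncr1 2 (chr7:4343480-4350226) the 3′ part. Ncr1 1 had medians of 71.0% in Sham, 71.7% in Sham-OVA, 73.9% in PM and 72.2% in PM-OVA, and Ncr1 2 had 72.1%, 70.5%, 71.9% and 70.8% in the same order. All groups overlapped. In Sham the OVA differences were -0.42 points for Ncr1 1 (-2.47 to 1.63) and -0.705 points for Ncr1 2 (-2.6 to 1.19), or -0.26 and -0.453 points without Sham replicate 1. Leaving out single libraries gave -0.932 to 0.402 points for Ncr1 1 in Sham. In PM they were -1.98 points (-3.96 to 0.00788, limma adjusted p = 0.108) and -1.61 points (-3.44 to 0.216, limma adjusted p = 0.167), and with the libraries centred Ncr1 1 in PM was at -0.998 points (limma adjusted p = 0.619). No Ncr1 window passed the test.

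Eomes encodes Eomesodermin, the T-box factor of natural killer cells and memory CD8 T cells, and its 6 windows gave both rises called in each comparison. Eomes 4 (chr9:118479718-118482266) lies wholly inside the gene, 2780 bases from the start at its centre, with 470 coding bases and otherwise introns. The lowest, median and highest library were 30.0%, 31.3% and 35.5% in Sham and 33.3%, 36.8% and 42.2% in Sham-OVA. They were 28.9%, 31.7% and 32.9% in PM and 31.6%, 35.1% and 37.3% in PM-OVA. The groups overlapped at their edges, although every challenged library lay above the mean of its unchallenged group.

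Eomes 4 rose from 31.9% ± 2.18 to 37.3% ± 2.78 in Sham (SD, n = 7 each), by 5.38 points (3.18 to 7.58), which was 0.34 ± 0.070 on the log2 scale (SE, limma adjusted p = 0.000444). In PM it rose from 31.3% ± 1.45 to 34.8% ± 1.79, by 3.56 points (1.43 to 5.69, limma adjusted p = 0.00768). The difference between these was -1.82 points (-4.89 to 1.24, limma adjusted p = 0.813). Without Sham replicate 1 the rise in Sham was 5.12 points (limma adjusted p = 0.00135), and over all libraries left out in turn it ran from 4.57 to 6.06 points in Sham and from 3.17 to 4.03 points in PM.

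Eomes 3 (chr9:118479162-118479691) precedes it, at the edge of the unmethylated start, with 385 coding bases in 530. Its libraries ran from 1.47% over 2.18% to 3.29% in Sham and from 3.05% over 3.71% to 4.43% in Sham-OVA. In PM they ran from 0.923% over 2.42% to 2.67%, and in PM-OVA from 2.5% over 3.2% to 5.41%. It rose by 1.5 points in Sham (0.582 to 2.42) and by 1.49 points in PM (0.602 to 2.38), which on the log2 scale was 0.59 ± 0.15 (SE, limma adjusted p = 0.00332) and 0.62 ± 0.15 (SE, limma adjusted p = 0.00134). The PM rise minus the Sham rise was -0.00927 points (-1.29 to 1.27). The PM rise was 0.951 points (limma adjusted p = 0.012) without PM-OVA replicates 7 and 8, and 2.47 points (limma adjusted p = 0.000405) with the libraries centred. Centring adds the same 0.979 points to each member window in PM whatever its level, and so enlarged the rise of this nearly unmethylated window. Eomes 3 also rose in Sham without Sham replicate 1, by 1.51 points (limma adjusted p = 0.00535).

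The remaining windows of Eomes did not pass the test. Eomes 1 (chr9:118477690-118478736), with the gene start, had medians of 0.696% in Sham, 0.927% in Sham-OVA, 0.557% in PM and 0.761% in PM-OVA. The Sham mean of 1.28% rested on replicate 4 at 5.35%, where the other 6 lay between 0.335% and 0.802%. Without it the OVA difference of Eomes 1 in Sham was 0.514 points instead of -0.163 points, and neither passed in limma (adjusted p = 0.172 and 0.928). It was -0.277 points without Sham replicate 1. Eomes 2 stayed at group means of 0.463% to 0.679%. Eomes 5 (83.3%, 82.8%, 83.4% and 84.2% in Sham, Sham-OVA, PM and PM-OVA) and Eomes 6 (24.4%, 25.1%, 24.3% and 24.4%) had differences of -0.472 to 0.769 points. With the libraries centred, Eomes 5 was the further window called higher in PM.

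**Figure D4:**
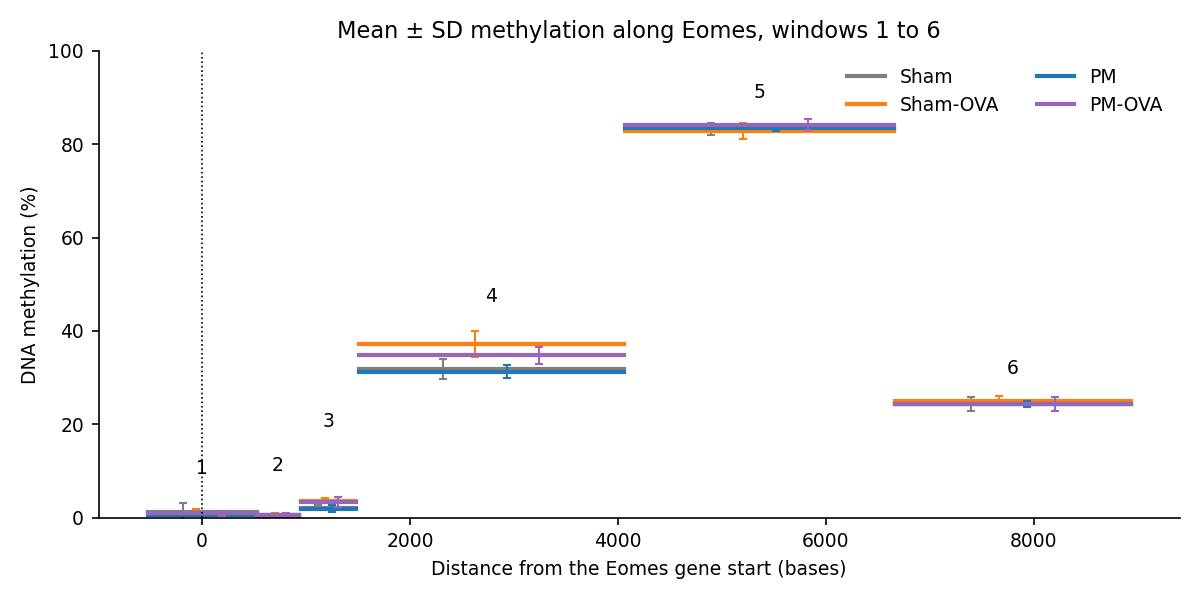
Mean percent DNA methylation of Eomes 1 to 6 in the 4 groups (coloured lines spanning each window, with SD bars) against distance from the gene start in bases (dotted line at 0). The level climbs from near 0% at the start to above 80% in window 5 and drops to about 24% in window 6, and at windows 3 and 4 the means of both OVA groups lie above those of Sham and PM.

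Maternal particulate exposure alone was compared as PM with Sham and as PM-OVA with Sham-OVA. In PM against Sham 0 of 18 windows were DMRs or had an adjusted p under 0.05 in limma, and 2 had an unadjusted p under 0.05, beside 0% and 5.79% of all windows. The smallest p was that of Nkg7 1, at 2.7 points higher in PM (unadjusted 0.0042, limma adjusted p = 0.812). With Sham replicate 1 left out it was 2.17 points higher (limma adjusted p = 0.856), and 1 member window had an unadjusted p under 0.05. In PM-OVA against Sham-OVA 0 of 18 were DMRs or passed the adjusted threshold in limma, and 2 had an unadjusted p under 0.05, beside 0% and 5.96% of all windows. The smallest p was that of Eomes 4, at 2.51 points lower in PM-OVA (unadjusted 0.0313, limma adjusted p = 0.824). For the difference between the OVA effects the members again gave 0 DMRs and 0 adjusted calls in limma, with 2 unadjusted p under 0.05 (Nkg7 1 and Gzma 2), beside 0% and 7.4% of all windows. The 3 comparisons share groups with the OVA comparisons, so their values are not independent of those above.

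The windows most like the members in their course over the 29 libraries were sought by the root mean square difference after centring each window on its own mean. For Gzma 1, whose own spread was 2.97 points, they belonged to Kazn, Txnrd1 and Cd1d1, at 1.31, 1.32 and 1.37 points, where the median of all windows was 3.07. The window of Cd1d1, a lipid-presenting molecule, differed by -7.18 points after OVA in Sham and by -5.31 points in PM. For Nkg7 1 they belonged to Usp18, Arhgef3 and Gm27019, at 1.36, 1.42 and 1.46 points (median of all 2.85). Those 3 windows differed by -5.65 to -4.65 points in PM and by -1.97 to -1.84 points in Sham, and since they were chosen for following Nkg7 1 over these same libraries, the choice fixes that likeness. For Eomes 4 they belonged to Gm49484, Nhlrc2 and Uso1, at 1.56, 1.72 and 1.72 points (median of all 3.68). Other members' windows do not appear among these.

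Other genes of the cytotoxic machinery were counted from lists of 86 genes, of which 79 had windows, 662 in all. There, 14 windows rose and 10 fell as DMRs after OVA in Sham, and 7 rose and 11 fell in PM. This was 3.63% of the list in Sham, beside 0.775% of all tested windows, and 2.72% in PM, beside 0.584% of all. The lists were not tested against one another or against all windows. They were written with earlier results of these data known, so the shares cannot be read apart from that choice of genes. Leaving out Sham replicate 1 gave 24 DMRs in Sham, of which 23 were among the 24 of all libraries. A Tox window (9.84 points) dropped under 10 points and a Bach2 window (9.65 points with all libraries) reached them. The DMRs came from 5 of the 8 roles. Neither the other granzymes (24 windows) nor the natural killer receptors (102 windows) nor the CD8 coreceptor (6 windows) held a DMR in either comparison.

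By adjusted p alone (limma, under 0.05), 17.4% of the 662 windows rose and 24.3% fell in Sham, beside 13.3% and 22.3% of all tested windows, and 13.3% rose and 35.0% fell in PM, beside 9.26% and 34.8%. With the libraries centred the balance turned, to 23.6% higher and 19.9% lower in Sham, beside 18.3% and 17.8% of all windows, and to 22.7% higher and 18.6% lower in PM, beside 18.9% and 18.7%. Before centring, 1 window of the other granzymes rose and 7 fell in Sham, and 1 rose and 12 fell in PM. Of the 102 windows of natural killer receptors 9 rose and 18 fell (17.6%) in Sham, and 8 rose and 32 fell (31.4%) in PM, so that the share that fell was below that of all windows in both. With the libraries centred, 14 rose and 14 fell in Sham, and 16 rose and 12 fell in PM. As for Klrb1c, the part of strain differences in the values of this receptor list was not tested. The CD8 coreceptor had 0 calls in Sham and 2 falls in PM. The signalling adaptors had 9 rises and 28 falls of 62 windows in Sham and 4 rises and 32 falls in PM. The transcription factors had 67 rises and 63 falls of 303 in Sham and 48 rises and 88 falls in PM. Granule formation and release had 17 rises and 21 falls of 87 in Sham and 19 and 28 in PM, cytokine receptors 8 and 18 of 58 in Sham and 6 and 30 in PM, and the list of death ligands, cytokines and chemokines 4 and 6 of 20 in Sham and 2 and 8 in PM. Centring left more falls than rises in both comparisons for the other granzymes, the adaptors and the death ligands, cytokines and chemokines. It gave 14 rises and 14 falls in Sham and 11 and 17 in PM for the cytokine receptors. It gave more rises than falls in both for the transcription factors (89 and 54 in Sham, 78 and 53 in PM) and for granule formation and release (22 and 15, 27 and 8).

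The DMRs with the largest change in each list show where the machinery moved by more than 10 points. Runx3, a factor that sets CD8 T cell identity, rose at chr4:135166521-135169008 from 40.6% ± 3.14 to 58.7% ± 6.02 in Sham and from 43.3% ± 4.82 to 58.1% ± 4.7 in PM (limma adjusted p = 1.98e-06 and 1.38e-05). Bach2, a repressor of effector differentiation in T and B cells, fell at chr4:32424356-32426904 from 85.6% ± 1.33 to 69.1% ± 4.22 in Sham and from 86.4% ± 1.76 to 68.7% ± 2.0 in PM (limma adjusted p = 8.41e-10 and 2.46e-10). Both windows separated challenged from unchallenged libraries. The lowest Runx3 value was 47.1% in Sham-OVA against a highest of 45.3% in Sham, and 51.7% in PM-OVA against 50.3% in PM. For Bach2 the highest challenged values were 77.0% in Sham-OVA and 72.4% in PM-OVA, against lowest unchallenged values of 83.5% and 84.3%. Bach2 also held DMRs that rose, at chr4:32518432-32521911 in Sham (10.6 points, and 7.09 points in PM) and at chr4:32304977-32307930 in PM (11.5 points, and 9.65 points in Sham). Further Runx3 windows rose as DMRs in Sham only, at chr4:135175451-135177494 (17.9 points, and 7.32 in PM) and chr4:135154221-135155780 (10.6 points, and 2.89 in PM). Others rose as DMRs in both, at chr4:135150615-135151737 (13.6 points in Sham, 13.4 in PM) and chr4:135155781-135158403 (14.1 and 10.3).

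Among the granule genes, Srgn, the proteoglycan core that packs granzymes and is shared by granules of many blood cells, fell from 58.0% ± 2.8 to 44.4% ± 3.64 in Sham and from 57.2% ± 2.16 to 42.0% ± 3.32 in PM at chr10:62501129-62505437 (limma adjusted p = 3e-07 and 2.09e-08). Stx11, a syntaxin of granule fusion, rose by 15.4 points in Sham at chr10:12941519-12943530 (limma adjusted p = 6.94e-06) and by 8.12 points in PM (limma adjusted p = 0.00397), where the second value was under the 10 points of a DMR. Of the adaptors, Syk, a kinase also used by B cells and myeloid cells, in a window at chr13:52595913-52600122, fell by 16 points in Sham, and in PM fell by 14.4 points (limma adjusted p = 1.17e-08 and 1.85e-08). No window of an adaptor gene rose as a DMR.

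Tnf, which encodes tumour necrosis factor, fell at chr17:35198982-35201516 from 61.5% ± 1.92 to 47.2% ± 4.43 in Sham and from 61.7% ± 1.33 to 46.9% ± 3.9 in PM (limma adjusted p = 2.31e-07 and 4.93e-08). Of the receptors, Il12rb1, a chain of the interleukin-12 and interleukin-23 receptors, rose at chr8:70819359-70820841 by 14.6 points in Sham and 13 points in PM (limma adjusted p = 1.78e-05 and 3.53e-05). Another window of Il12rb1, at chr8:70806988-70811051, fell by 7.26 points in Sham, under the 10 points of a DMR, and in PM fell by 10.3 points (limma adjusted p = 1.56e-05 and 4.5e-08). Il21r, the receptor of interleukin-21, in a window at chr7:125600288-125603947, fell by 10.1 points in Sham, and in PM fell by 10.4 points (limma adjusted p = 5.22e-06 and 1.57e-06). Each of these genes is also used by cells other than cytotoxic lymphocytes. When Sham replicate 1 was left out, the Sham differences of these windows were 18.0 points for Runx3, -16.6 points for Bach2, -13.6 points for Srgn, 15.2 points for Stx11, -15.7 points for Syk, -14.3 points for Tnf, 14.2 points for Il12rb1 and -10.3 points for Il21r.

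**Figure D5:**
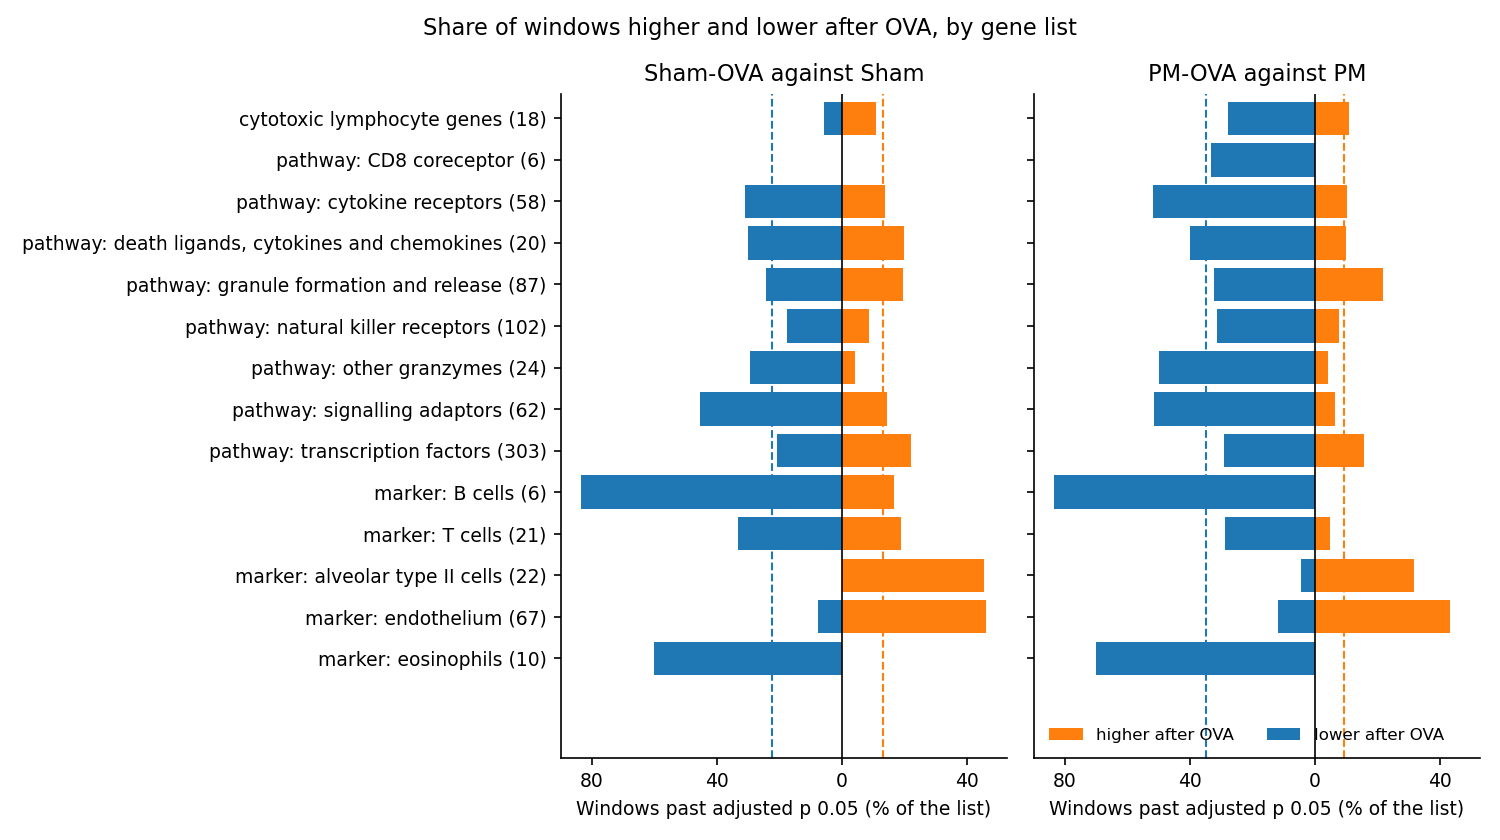
Share of each list's windows that were lower (to the left) or higher (to the right) after OVA at an adjusted p under 0.05, in Sham (left panel) and PM (right panel), with the number of windows in brackets and dashed lines at the share of all tested windows. The 18 windows of the 8 genes lie inside the dashed lines in Sham and pass only the line for higher windows in PM (11.1% against 9.26%, but 16.7% against 18.9% with the libraries centred), while B cell and eosinophil markers reach far to the left and structural markers to the right.

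Some markers of other cell types moved with OVA as well. The mean over the windows of B cell markers went from 71.2% to 64.1% in Sham and from 71.7% to 63.2% in PM, and 5 of its 6 windows fell in each (limma, adjusted p under 0.05), beside 22.3% and 34.8% of all windows. Eosinophil markers went from 75.3% to 71.3% and from 75.8% to 71.0%, with 6 and 7 of 10 windows falling. T cell markers, which natural killer cells lack and CD8 T cells share in part, went from 68.8% to 68.2% and from 69.4% to 68.1%. The mean over all tested windows went from 69.1% to 68.8% in Sham and from 69.4% to 68.4% in PM. The T cell markers had 4 rises and 7 falls of 21 windows in Sham and 1 and 6 in PM. With the libraries centred they had 4 rises and 6 falls in Sham and 4 and 4 in PM. Endothelial markers went up from 67.3% to 70.0% and from 68.0% to 69.8%, and alveolar type II markers from 62.9% to 65.1% and from 63.4% to 64.8%. The mean of the 18 member windows was 55.8% ± 0.66 in Sham, 55.4% ± 0.351 in Sham-OVA, 56.3% ± 0.326 in PM and 55.2% ± 0.389 in PM-OVA, with ranges that overlapped in Sham (55.1% to 56.9% and 55.1% to 56.0%) and met at their ends in PM (55.8% to 56.8% and 54.7% to 55.8%). Without Sham replicate 1 the Sham means of the marker lists lay at 71.0% for B cells, 75.1% for eosinophils, 68.8% for T cells, 67.3% for endothelium and 63.1% for alveolar type II cells, and 6 of 22 alveolar type II windows rose in limma instead of 10. The part of a changed mixture of cells in the member differences was not tested.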

How the data were processed

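Lung DNA of 29 libraries was profiled by enzymatic methyl-sequencing. As the labels and the methods of the study state, reads were trimmed with Trim Galore and aligned to GRCm38, DRAGEN called methylation, and the authors made the windows in SeqMonk. The deposited unit is percent methylation, 1 value per window and library, without counts or coverage, so the depth at each window is unknown and no counting interval can be given. The 8 genes, the gene lists and the rules for naming windows were chosen with earlier results of these data known.

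Windows were annotated with GENCODE M21 and the GRCm38 sequence, taking 2000 bases before a start as promoter. Each percentage, with 1 point added to it and to its complement, was expressed as a log2 ratio. The 4 groups were fitted to the 29 libraries together with limma (3.58.1 in R 4.3.3, with version 1.17.8 of data.table). Tests were 2-sided and adjusted by Benjamini-Hochberg over 259167 windows with at least 3 values in each group, and the other 1519 were not tested. Intervals (95%) in points come from the same fit on percentages. A DMR needed an adjusted p under 0.05 and 10 points. The study's own threshold belongs to a test of read counts and served as an alternative.

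For each gene the window with its start and, where it had no DMR, the window with the smallest p were named by rule. Gzma 2 and Eomes 3 were added because of their values, and the neighbouring windows of Nkg7 and Gzmb because of their position. Of each list, the DMRs with the largest rise and fall in Sham were named, 1 window a gene. Alternatives were percentages, an offset of 5 points, centred libraries, complete windows, a replicate block, only the groups compared, a minimum of 5 points, an adjusted p under 1e-06, and leaving out libraries. On simulated data for OVA in Sham, 199 of 200 changed windows among 259167 were recovered with 0 false calls. Tables and figures were made with Python 3.11.15, pandas 2.3.3 and matplotlib 3.10.9. RNA data and intergenic windows were not used here.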

Additional observations from a re-analysis of the deposited data

Results flagged for a closer look

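Of 72 sets of libraries (18 windows in 4 groups), 9 held a library that lay far from the rest of its group by Dixon's gap criterion, where chance alone flags about 1 in 20. Gzmb 1 stood at 75.8% in Sham-OVA replicate 1, where the other 6 lay at 69.7% to 71.8%, and at 76.0% in PM-OVA replicate 3, where the others lay at 71.6% to 73.4%. PM-OVA replicate 7 lay lowest at Nkg7 1 (62.8%, others 66.0% to 68.6%) and highest at Klrb1c 1 (59.0%, others 54.6% to 56.6%). Ncr1 1 stood at 77.0% in Sham replicate 2 (others 70.1% to 73.1%) and at 77.0% in PM replicate 3 (others 72.8% to 74.6%), and Ncr1 2 at 75.8% in Sham-OVA replicate 4 (others 69.7% to 72.3%). At the unmethylated start of Eomes, Eomes 1 stood at 5.35% in Sham replicate 4 (others 0.335% to 0.802%) and at 2.01% in PM-OVA replicate 6 (others 0.554% to 1.18%). These were 8 different libraries, and their depth at the windows is unknown.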

How the results depend on the processing

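The count of 0 member DMRs held in the 5 comparisons under each alternative run for them (the difference between the OVA effects has no fit with only 2 groups), except the lower minimum difference of 5 points, which gave 2 in Sham and 1 in PM, and raised the share of the 662 pathway windows that were DMRs from 3.63% to 15.3% in Sham and from 2.72% to 13.6% in PM. An adjusted p under 1e-06 in limma left 0 member windows without a minimum difference in Sham and 0 in PM, where 3 and 7 had been called, and 1.21% and 1.66% of pathway windows as DMRs. With the libraries centred, the difference changed sign for Prf1 1 in Sham (0.272 points), Gzmb 1 in PM (0.476) and Eomes 1 in Sham (0.232), and without PM-OVA replicates 7 and 8 for Klrb1c 1 in PM (-0.238). None of these was called. Centring adds the same points to each member window of a comparison whatever its level, also to the nearly unmethylated Eomes 1. Leaving out each library in turn gave -0.652 to 0.412 points for Prf1 1 in Sham, -0.0897 to 0.315 for Gzma 2 in Sham, -0.0917 to 0.902 for Klrb1c 1 in PM, -0.932 to 0.402 for Ncr1 1 in Sham and -0.445 to 0.514 for Eomes 1 in Sham. Of 585 differences of single windows under an alternative, 546 kept direction and side of the threshold, 18 lost the call, 3 gained it and 18 changed sign. Part of this tally was fixed in advance. Several alternatives, such as another offset or only the groups compared, do not change a difference, so its direction could not turn under them. The adjusted p under 1e-06 by itself ended every call, and these are among the 18 lost calls. Replicate numbers did not pair the libraries (correlations of deviations -0.0409 to 0.0563, and 1 to 3 of 7 libraries correlated best with their own number). With the replicate number as a block, 3 member windows in Sham and 7 in PM had an adjusted p under 0.05 in limma, with 0 DMRs, as without it. The block ended the call of Klrd1 1 in PM (-2.14 points, adjusted p = 0.0544 in limma). The lack of counts limits every value, since a window read at low coverage cannot be told from a well-covered one.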
